A study of Mus musculus with 15 samples.

Results

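The genes described here are the 10 genes of the MHC class II pathway that were listed by symbol: H2-Aa, H2-Ab1, H2-Eb1, Cd74, Ciita, H2-DMa, H2-DMb1, H2-DMb2, H2-Oa and H2-Ob. They were chosen by name, and all 10 were found among the 24084 genes of the table of corrected counts, from which the authors had taken out reads of genomic DNA, and among the 15289 genes tested. They were measured in macrophages sorted as F4/80 and CD45 double-positive cells from C57BL/6J mice, taken ex vivo without culture, in 15 libraries of low-input RNA-seq from total RNA. The 6 groups were macrophages of sympathetic ganglia (3 libraries, given as SCG in the protocol), of sympathetic nerve fibers dissected out of subcutaneous inguinal fat (2), of the subcutaneous fat itself (sATM, 2), of visceral fat (vATM, 2), of spleen (3) and of brain (microglia, 3). Both fat groups are labelled as anti-inflammatory macrophages. Tissue came from 10 mice, every title carries the same unexplained tag ND, and neither age nor sex is given. The labels do not say which mice went into which library, so a p-value here rests on how far libraries of a group scatter, and that scatter may be technical. Digestion differed with the tissue: collagenase for 30 minutes for fat, spleen and brain, hyaluronidase for 30 and then collagenase for 15 minutes for fibers, and collagenase for 10 and then trypsin for 30 minutes for ganglia. Tissue and digestion cannot be told apart where ganglia or fibers are compared with another group. Fat, spleen and brain share a digestion.

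MHC class II molecules are pairs of an alpha and a beta chain that present peptides from endocytosed material to CD4 T cells. Cd74, the invariant chain, fills the groove of new class II pairs and guides them to endosomes, where H2-DM (H2-DMa with H2-DMb1 or H2-DMb2) exchanges the last fragment of Cd74 for peptide and H2-O (H2-Oa with H2-Ob) restrains H2-DM. Ciita is the transactivator that does not bind DNA itself but joins the factors RFX, CREB and NF-Y on the promoters of these genes. Tissue macrophages are known to differ widely in class II, and resting microglia are known for low levels.

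Nerve and fat macrophages carried the class II presenting chains, Cd74 and Ciita at high level, spleen macrophages at an intermediate level, and microglia at the lowest level of the 6 groups. This order is of group means. Fibers and spleen were not separated by test for Ciita, nor sATM and spleen for Cd74. Cd74 averaged 6601 ± 1256 (SD, n = 3) in CPM, counts scaled to equal library size, in ganglia, 1993 ± 550.2 (n = 3) in spleen and 62.2 ± 49.0 (n = 3) in microglia. H2-Oa and H2-Ob did not follow. H2-Oa was highest in microglia, and H2-Ob was about equally high in ganglia, fibers and microglia and low in fat and spleen.

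Of the 9 genes other than Cd74, 8 lie on chromosome 17 of build mm10 and Ciita lies on chromosome 16 (10480072 to 10527640, plus strand). The 8 genes spread from the start of H2-Oa at 34092379 to the end of H2-Eb1 at 34316674. In order they are H2-Oa, H2-DMa (34122832 to 34139101), H2-DMb2 (34145416 to 34151095), H2-DMb1 (34153191 to 34160229), H2-Ob (34238905 to 34245908), H2-Ab1 (34263227 to 34269418), H2-Aa (34282751 to 34287771, minus strand) and H2-Eb1 (from 34305867). All but H2-Aa are on the plus strand, and the counts are over their exons. In GENCODE an antisense gene overlaps H2-Eb1 (Gm20513), H2-DMa (CR974462.4) and H2-Oa (BC051537), and Dexi overlaps Ciita on the other strand. Whether counting used strand is not given in the sources used here, so reads of these partners cannot be told apart from those of the gene. The H2-DMb1 and H2-DMb2 transcripts were 94.6% identical over 1219 aligned bases, so the division of reads between them is uncertain.

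Promoter sequence is shown because the class II genes are known to share an upstream module on which Ciita acts, and because the genes below split into those that move with Ciita and those that do not. RefSeq (GRCm38.p6) gave a promoter for 7 of the 10 genes. Each line holds the bases from 150 to 21 before the start, 5′ to 3′ on the gene's strand. Capitals mark ATTGG on either strand, the core of the NF-Y box (CCAAT read from the other strand), and AACNNATG, a string chosen after these promoters had been read.
H2-Aa: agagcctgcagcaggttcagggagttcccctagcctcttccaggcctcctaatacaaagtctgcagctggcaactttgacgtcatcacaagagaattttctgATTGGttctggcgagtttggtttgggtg
H2-Eb1: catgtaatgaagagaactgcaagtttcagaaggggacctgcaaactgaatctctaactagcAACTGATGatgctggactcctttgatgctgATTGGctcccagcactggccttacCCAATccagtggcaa
H2-DMa: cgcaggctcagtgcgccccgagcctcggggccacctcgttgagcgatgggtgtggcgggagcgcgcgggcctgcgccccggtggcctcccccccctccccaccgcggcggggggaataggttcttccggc
H2-DMb1: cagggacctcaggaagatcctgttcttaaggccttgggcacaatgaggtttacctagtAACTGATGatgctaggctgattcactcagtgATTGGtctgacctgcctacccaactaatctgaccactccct
H2-DMb2: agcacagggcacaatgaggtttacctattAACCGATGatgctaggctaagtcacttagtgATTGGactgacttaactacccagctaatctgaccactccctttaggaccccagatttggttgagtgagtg
H2-Oa: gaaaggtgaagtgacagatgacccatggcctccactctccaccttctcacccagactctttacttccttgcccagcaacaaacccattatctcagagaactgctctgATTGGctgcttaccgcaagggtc
H2-Ob: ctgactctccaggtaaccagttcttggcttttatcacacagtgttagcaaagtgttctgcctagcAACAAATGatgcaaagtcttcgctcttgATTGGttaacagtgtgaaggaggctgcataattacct
From 250 bases before to 50 after the start, ATTGG was found in 6 of the 7 promoters, all but H2-DMa. Of 32851 promoters of that length in the same table, 37.41% held it on either strand. AACNNATG followed by ATTGG after 15 to 40 bases was found in H2-Eb1 (a gap of 22 bases), H2-DMb1 (23), H2-DMb2 (23) and H2-Ob (20), and in 0.22% of all promoters (72 of 32851). The string was taken from these genes, so the low share is a description only. The H2-DMa window was 77.7% G and C, against a median of 53.8% and a 90th percentile of 71.5% over the same window of all promoters, and the other 6 lay between 43.1% (H2-Ob) and 51.5% (H2-Oa). H2-Ob, whose RNA did not follow Ciita (Pearson's r = -0.42 over the 15 libraries), holds the same pair of strings as H2-Eb1, whose RNA did (0.95). H2-Aa, which also followed Ciita (0.95), holds ATTGG without AACNNATG, and the H2-DMa window (0.82) holds neither. AACNNATG was taken from some of these promoters, so its absence does not show that the shared module is absent. Nor can it show whether the module goes with following Ciita. A promoter at another start of a gene would not be seen in these windows. For H2-Aa and H2-DMb2 the RefSeq start differs from that of the transcript counted. A match is a description of letters, not of a bound site.

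The corrected tables held 2546393 to 12515863 counts per library, of which genes that collect ribosomal RNA reads took 46.1% to 71.5%. A count of 3, taken as the floor, was 0.249 to 0.897 CPM (counting error only). Macrophage markers were above 0 in all 15 libraries (9 of 9 genes, summed level 5301 to 12930 CPM), and microglial markers summed to 16270 to 16930 CPM in microglia and to at most 2637 elsewhere. Some libraries stood apart. In sATM 1 the monocyte list (8 genes) summed to 3284 CPM against 1348 in sATM 2, with Ace at 344 against 7.82 and Ly6c2 at 281 against 59.3. Ccr2, on the same list, was about equal in them (1031 and 1027). Nr4a1, also on it, averaged 576.6 CPM over the sATM libraries. Its values in each are not given here, so the gap in the sum is not that of Ace and Ly6c2 alone. In microglia 1 the list of adipose and perivascular macrophages (10 genes) summed to 89.8 CPM against 23.9 and 24.5 in the other microglia, and Ccr2 stood at 40.9 against 3.93 and 10.9. Reads of genomic DNA, seen as raw counts over olfactory receptor genes in raw CPM per kilobase of gene body, were densest in fibers 1 (0.715), microglia 2 (0.629) and ganglia 3 (0.497) and lay between 0.0191 and 0.398 in the others. In every group but fibers, replicate 1 had the lowest density of its group (0.0191 to 0.0589).

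In ganglia against microglia, 7 of the 10 genes were higher in ganglia: H2-Aa, H2-Ab1, H2-Eb1, Cd74, Ciita, H2-DMa and H2-DMb1. A gene was called where edgeR's quasi-likelihood test gave a Benjamini-Hochberg adjusted p below 0.05 over all 15289 genes and the difference was at least 2-fold. By that rule 4.91% of all genes were higher in ganglia and 2.03% lower, and none of the 10 was lower. The median log2 difference was 4.01 over the 10 genes and -0.13 over all genes tested. In ganglia against spleen, H2-Aa, H2-Ab1, H2-Eb1, Cd74, Ciita, H2-DMa and H2-Ob were higher in ganglia, 7 of 10 against 5.96% of all genes, and 0 were lower against 3.6% (medians 1.70 and 0.10). In spleen against microglia, the presenting chains, Cd74 and Ciita were higher in spleen, 5 of 10 against 5.8% of all genes, and H2-Oa and H2-Ob were lower, 2 of 10 against 5.31% (medians 2.56 and -0.21). These 3 comparisons share libraries. On the raw counts over whole gene bodies, from which no DNA was taken out, Ciita alone passed in ganglia against microglia, and none of the 10 passed in ganglia against spleen or in spleen against microglia. The presenting chains and Cd74 then stood at 6.30 to 6.63 in ganglia against microglia (adjusted p = 0.0627 to 0.098 by edgeR), 1.84 to 3.15 in ganglia against spleen (0.368 to 1.0) and 3.28 to 4.79 in spleen against microglia (0.143 to 0.334).

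Few of the 10 genes were called in fibers against sATM, ganglia against fibers or sATM against vATM. Calls in the other pairs of nerve and fat groups, from the same fit, are given by gene below. In fibers against sATM only H2-Ob was higher in fibers (1 of 10, against 1.85% of all genes) and only H2-DMb2, listed at 0 in both fiber libraries, was lower (1 of 10, against 2.99%). In ganglia against fibers none of the 10 was called in either direction, against 2.85% of all genes higher and 1.27% lower in ganglia. With edgeR 2 of the 10, H2-DMb2 and H2-Oa, had an unadjusted p below 0.05 there, and DESeq2 called 1 of 10, H2-DMb2. In sATM against vATM again none was called, against 0.0196% of all genes higher and 0.0196% lower. With edgeR 1 of the 10, H2-Ob, had an unadjusted p below 0.05 in that comparison, and DESeq2 called 0 of 10. The median log2 difference over the 10 genes was 0.11 in fibers against sATM, -0.02 in ganglia against fibers and -0.35 in sATM against vATM, beside 0.0, 0.0 and -0.04 over all genes. With RLE in place of TMM scaling the median of all genes moved from 0.0 to 0.28 in fibers against sATM, where 374 genes were then higher and 281 lower (283 and 457 with TMM), and from 0.0 to -0.25 in ganglia against fibers (291 and 287 in place of 435 and 194). The number of the 10 genes called was the same under RLE scaling in all 6 comparisons.

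**Figure D1:**
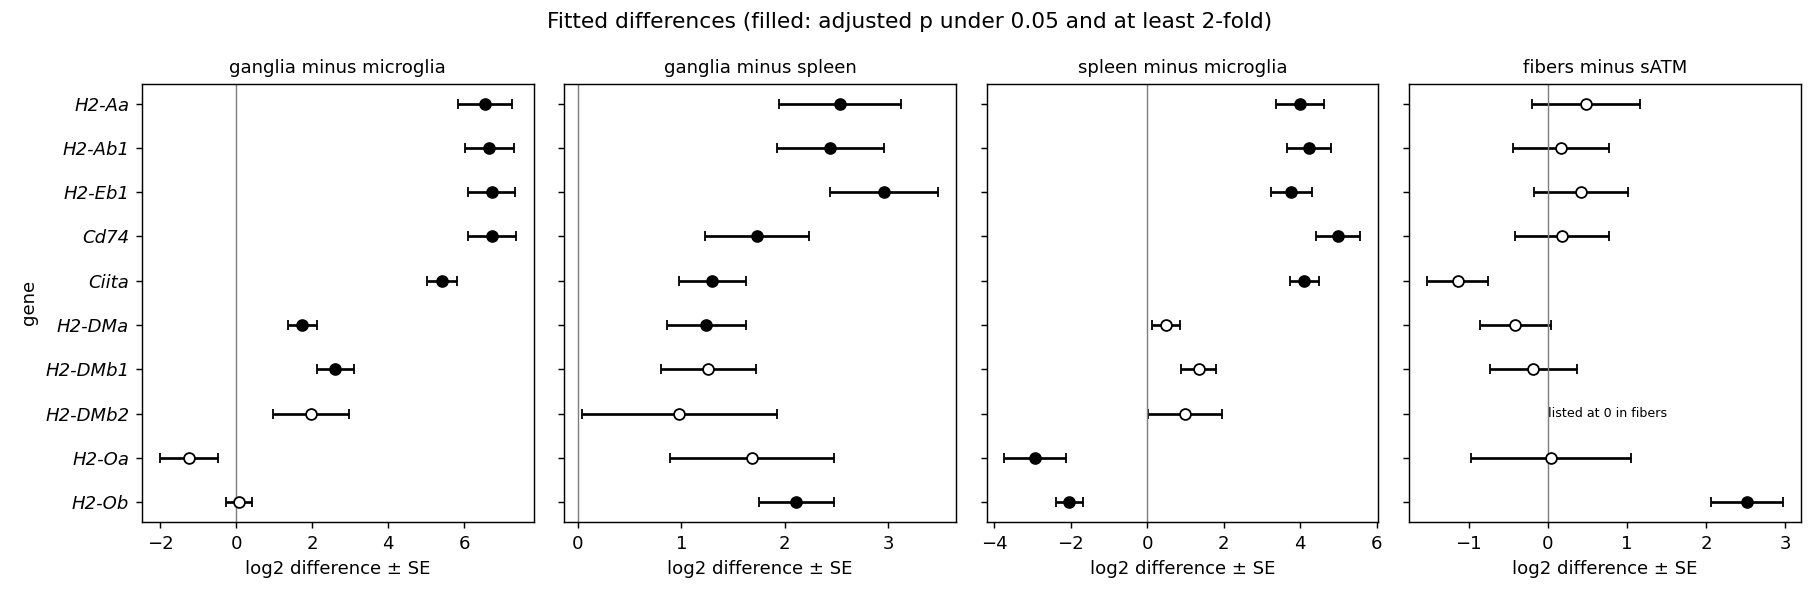
Fitted log2 differences ± SE for the 10 genes in 4 comparisons, each panel with its own horizontal axis; filled points have an adjusted p below 0.05 and at least a 2-fold difference, open points do not. In ganglia minus microglia the presenting chains and Cd74 sit between 6.53 and 6.72, Ciita at 5.41 and H2-DMa at 1.74, while H2-Ob is at 0.08.

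The presenting chains came first in size. H2-Aa, the alpha chain of the class II molecule I-A, was at 3945, 4287 and 3925 CPM in the ganglia libraries and at 4080 and 5366 in fibers. It was at 1829 and 4920 in sATM, at 4364 and 4935 in vATM and at 631, 854 and 616 in spleen. In microglia it was at 99.9, 13.5 and 16.6. All 9 libraries of nerve and fat lay above all 3 of spleen, which lay above all 3 of microglia. H2-Aa was 92.3-fold higher in ganglia than in microglia (log2 6.53 ± 0.71, adjusted p = 1.77e-05 by edgeR). It was 5.79-fold higher in ganglia than in spleen (2.53 ± 0.59, adjusted p = 0.00914) and 15.9-fold higher in spleen than in microglia (log2 4.0 ± 0.63, adjusted p = 0.000288).

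H2-Ab1, the beta chain of I-A, stood at 4461, 4740 and 5374 CPM in ganglia, at 3895 and 6358 in fibers, and at 6024 and 6076 in vATM. The sATM libraries had 2172 and 6930, the spleen libraries 729, 1195 and 760.9, and the microglia 95.8, 25.54 and 20.98. Every library of nerve and fat again lay above spleen, and every spleen library above microglia. H2-Ab1 was 101-fold higher in ganglia than in microglia (6.66 ± 0.64, adjusted p = 4.73e-06 by edgeR) and 2.44 ± 0.52 log2 units higher than in spleen (adjusted p = 0.00511). Per length the 2 chains of I-A were close to balanced: H2-Ab1 had 0.856 to 1.70 RPKM (reads per kilobase of transcript, scaled for library size) for each RPKM of H2-Aa over the 15 libraries.

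H2-Eb1 encodes the beta chain of the second class II molecule, I-E, whose alpha chain gene is known to be defective in C57BL/6 mice. The ganglia libraries had 2872, 3348 and 2677 CPM, those of fibers 2527 and 4055, the sATM 1265 and 3643 and the vATM 3314 and 3512. Spleen had 351, 475 and 320.4, and microglia had 56.6, 13.2 and 13.1. Ganglia exceeded microglia by 6.72 ± 0.62 and spleen by 2.96 ± 0.52 on the log2 scale (edgeR, adjusted p = 3.75e-06 and 0.00102). The row of the alpha chain pseudogene H2-Ea-ps held 0 to 2.25 CPM in every library and was not tested. H2-Ea has no row and was not analysed here. Beta chain RNA of I-E was thus present at up to 4055 CPM where the alpha chain pseudogene reached 1.79 CPM in the same group.

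Cd74, the invariant chain, was at 6120, 5657 and 8026 CPM in ganglia, 4315 and 9821 in fibers, 3040 and 9473 in sATM and 7752 and 7913 in vATM. In spleen it was at 1573, 2616 and 1789, and in microglia at 119, 31.2 and 36.8. As for H2-Aa, nerve and fat lay above spleen and spleen above microglia without overlap. Its difference between ganglia and microglia was 6.72 ± 0.63 (105-fold, adjusted p = 4.14e-06 by edgeR) and between ganglia and spleen 1.73 ± 0.50 (3.31-fold, adjusted p = 0.0386). Spleen exceeded microglia by 4.99 ± 0.58 (adjusted p = 1.6e-05). Per length, Cd74 stood higher relative to H2-Aa in spleen (1.91 to 2.38 RPKM per RPKM) than in any other library (0.818 to 1.76), a ratio that was not tested.

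**Figure D2:**
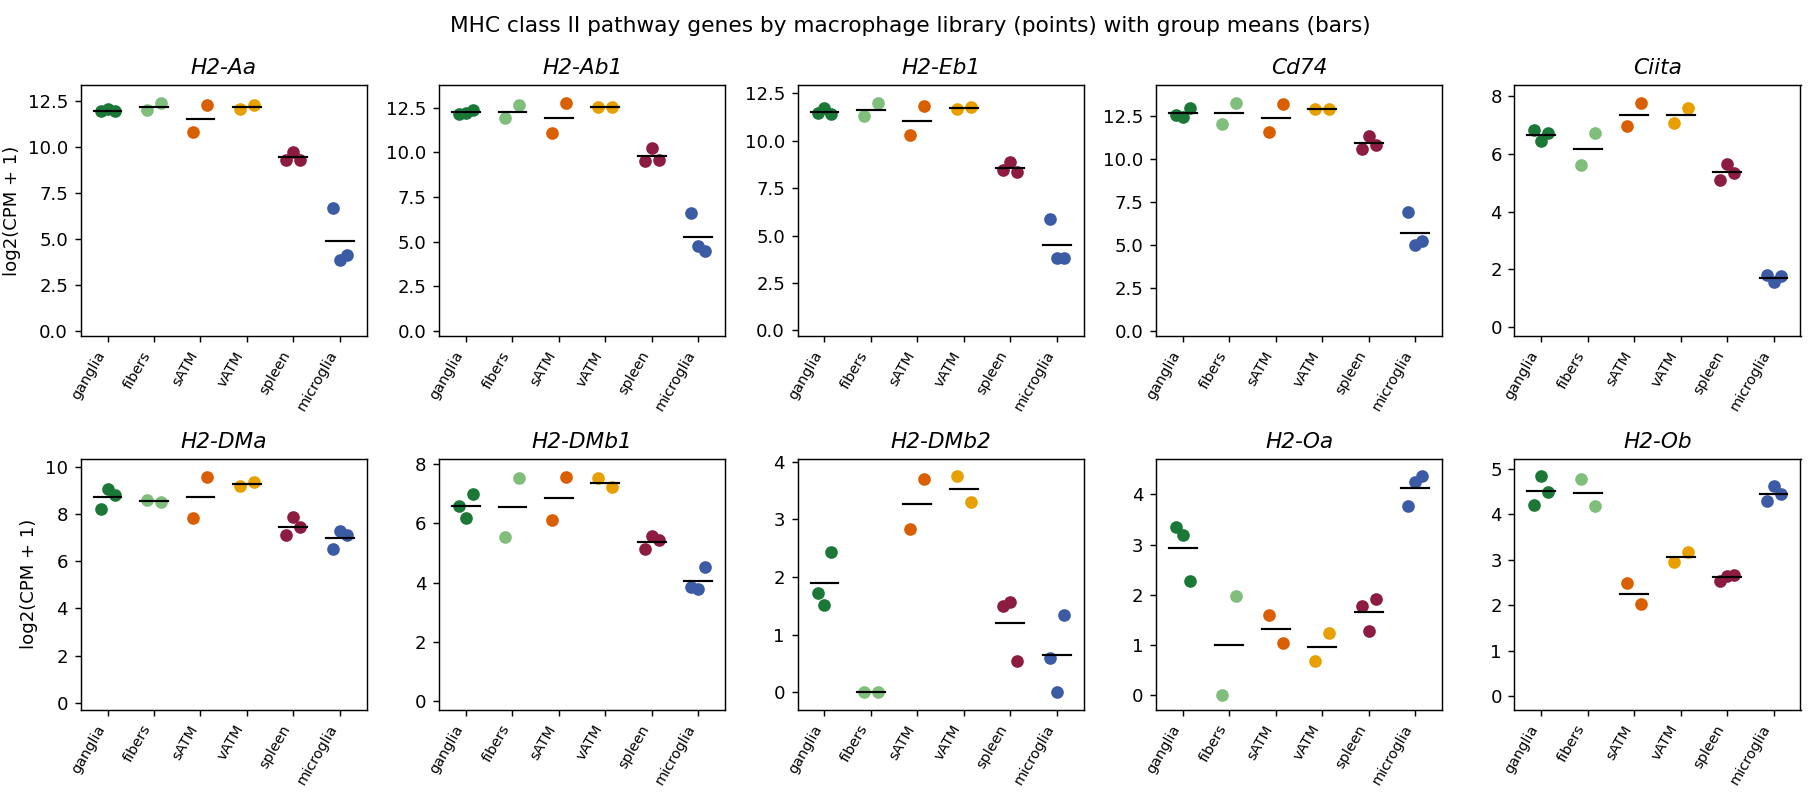
Level of each gene as log2(CPM + 1) in each of 15 libraries (points) with the mean of each group (bars), on an axis of its own per gene that starts at 0. The presenting chains and Cd74 step down from nerve and fat to spleen to microglia. Ciita does so too, except that 1 fiber library lies inside the spleen range. H2-DMa moves less, H2-Oa is highest in microglia, and H2-Ob is high in ganglia, fibers and microglia.

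Neighbours in the order of levels were tested for each gene. For H2-Aa, H2-Ab1, H2-Eb1 and Cd74 the top 4 groups, vATM, fibers, ganglia and sATM, did not differ beyond their spread (neighbouring log2 differences of 0.02 to 0.27 with SE of 0.54 to 0.68). The step from sATM to spleen passed for H2-Aa (2.27 ± 0.62, adjusted p = 0.0291 by edgeR), H2-Ab1 (2.35, adjusted p = 0.0118) and H2-Eb1 (2.68, adjusted p = 0.00387) and not for Cd74 (1.65 ± 0.54, adjusted p = 0.0763). In that comparison 6 of the 10 genes were higher in sATM, against 5.2% of all genes, and 0 were lower, against 3.56%. Without sATM 2 none of the 3 chains passed: H2-Aa was then at 1.28 (adjusted p = 0.509), H2-Ab1 at 1.17 (0.466) and H2-Eb1 at 1.62 (0.197). H2-Aa also did not pass without spleen 1, 2 or 3, nor H2-Ab1 without spleen 1 or 3, and H2-Aa had an adjusted p of 0.08 with the replicate number as a block. Ciita lost its call without sATM 2 (1.47, adjusted p = 0.0869). H2-DMa lost it without microglia 1, sATM 2, spleen 1, spleen 3, vATM 1 or vATM 2 (0.23 at the lowest, adjusted p up to 0.851). H2-DMb1 kept it on leaving out 3 of the 15 libraries, sATM 1, fibers 1 and fibers 2, and lost it on leaving out each of the other 12 (0.64 at the lowest, adjusted p up to 0.757). On raw gene-body counts none of the 6 passed (adjusted p = 0.298 to 1.0). The step from spleen to microglia passed for all 4 genes and for Ciita. For Ciita the neighbour above spleen was fibers, and that step did not pass (0.91 ± 0.35, adjusted p = 0.0839 by edgeR).

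In sATM the 2 libraries differed widely. The presenting chains, Cd74 and the H2-DM genes were 1.96-fold (H2-DMb2) to 3.33-fold (H2-DMa) higher in sATM 2 than in sATM 1, Ciita 1.77-fold, while H2-Oa and H2-Ob were at 0.508 and 0.677 of the sATM 1 level. Over 11485 genes with signal the same ratio had a median of 1.03 and ran from 0.251 at the 5th to 4.33 at the 95th percentile. The summed monocyte list, Ace and Ly6c2 were higher in sATM 1, the library with less class II, while Ccr2 was about equal. Their part in the difference was not tested. In samples of many cells, fewer class II-positive cells and less class II RNA per cell cannot be told apart.

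Microglia 1 likewise held more of the presenting chains than the other 2 microglia libraries. Its level was 6.65 times their mean for H2-Aa, 4.12 times for H2-Ab1, 4.31 times for H2-Eb1 and 3.49 times for Cd74, against a median of 1.001 and a 95th percentile of 2.33 over 10744 genes. Ciita was 1.14 times their mean and H2-DMa 0.616 times. Ccr2 and the list of adipose and perivascular macrophages were also higher in that library, and Mrc1 was at 49.2 CPM against 12.1 and 11.7. Their part in the result was not tested. Without microglia 1, ganglia exceeded microglia by 274-fold for H2-Aa, 217-fold for H2-Ab1, 234-fold for H2-Eb1 and 198-fold for Cd74, and spleen exceeded microglia by 49.9-, 42.2-, 31.3- and 63.1-fold, where all 15 libraries gave 15.9-, 18.7-, 13.6- and 31.8-fold.

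Ciita, the transactivator, was at 111, 85.4 and 105 CPM in ganglia and at 47.8 and 105 in fibers. The sATM had 122 and 214, the vATM 133 and 189, the spleen libraries 33.0, 49.2 and 39.7, and the microglia 2.51, 1.97 and 2.43. Nerve and fat again lay mostly above spleen, with 1 fiber library (47.8) inside the spleen range, and microglia lay far below every other library. Ciita was 42.5-fold higher in ganglia than in microglia (5.41 ± 0.40, adjusted p = 4.33e-07 by edgeR), a smaller fold than that of the presenting chains. Spleen exceeded microglia by 4.11 ± 0.38 (adjusted p = 1.46e-06) and ganglia exceeded spleen by 1.30 ± 0.32 (adjusted p = 0.0133). The corrected counts of Ciita in microglia were 29.1, 7.2 and 15.7, while the raw counts over the whole gene body were 98, 293 and 261. Scaled to raw CPM per kilobase, these raw counts were 0.105, 0.539 and 0.387. The olfactory receptor genes stood at 0.0192, 0.629 and 0.319 in the same libraries. The part of genomic DNA in the raw differences was not tested. On raw gene-body counts the difference between ganglia and microglia was 10.9-fold (adjusted p = 0.0412), and that between spleen and microglia was 4.82-fold and did not pass (adjusted p = 0.0946).

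Between fibers and sATM neither Ciita nor the presenting chains were called. The log2 difference of Ciita was -1.14 ± 0.39 in fibers, with no overlap between the libraries, and did not pass (adjusted p = 0.109 by edgeR). Without fibers 2 it did (-1.88, adjusted p = 0.00654). H2-Aa differed by 0.48 ± 0.68 (adjusted p = 0.646). Per length, H2-Aa had 258 and 475 RPKM per RPKM of Ciita in fibers and 181 to 258 in ganglia, against 133 and 167 in vATM, 76.4 and 118 in sATM and 80.2 to 98.1 in spleen, so no library of fat or spleen reached the nerve range. Microglia had 197 in microglia 1 and 66.4 and 42.4 in the others, on very low Ciita. The ratio was not tested.

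**Figure D3:**
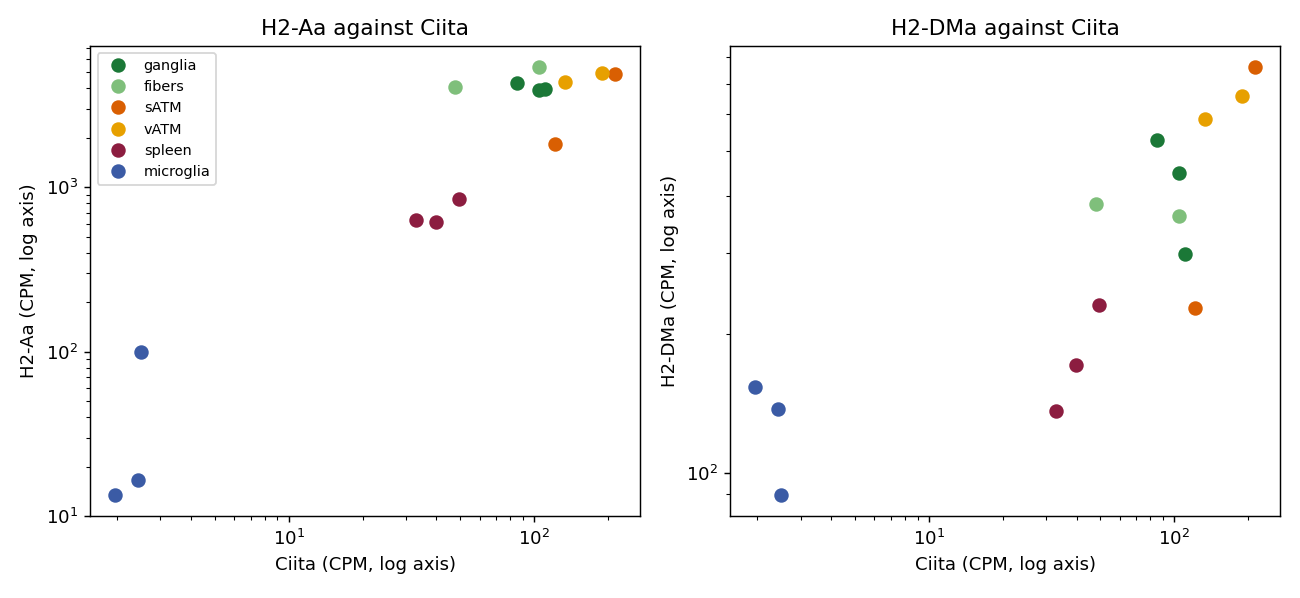
H2-Aa (left) and H2-DMa (right) against Ciita in the 15 libraries, all in CPM on log axes, coloured by group. H2-Aa falls from 1829 CPM or more in nerve and fat to 99.9 or less in microglia as Ciita falls to 2.51 CPM or less, whereas H2-DMa spans only 89.6 to 759.5 CPM.

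Across the 15 libraries, log2(CPM + 1) of H2-Aa, H2-Ab1, H2-Eb1 and Cd74 correlated at 0.98 or more with one another, and that of Ciita correlated with theirs at 0.95 to 0.97 (Pearson's r). H2-Aa correlated with H2-DMb1 at 0.88, with H2-DMa at 0.80, with H2-DMb2 at 0.45, with H2-Ob at -0.23 and with H2-Oa at -0.71. These are descriptions over libraries that fall into tissue groups, with the low microglia and the high nerve and fat libraries at the ends. Among 2606 other genes with a mean of at least 30 CPM, those most like the mean of the presenting chains and Cd74 included Anxa5 (r = 0.972), Gsn (0.97), Wfdc17 (0.969), Fxyd5 (0.967), Lgals1 (0.967), Tgfbi (0.961) and Rgs1 (0.96). Among 8050 genes with a mean of at least 5 CPM, those most like Ciita were Anxa5 (0.978), Tgfbi (0.974), Wfdc17 (0.971), St3gal1 (0.97) and Fxyd5 (0.966). Anxa5, for example, averaged 148 CPM in ganglia, 108 in spleen and 13.5 in microglia.

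H2-DM, the peptide exchanger, varied less. H2-DMa was at 299, 528 and 447 CPM in ganglia and at 384 and 362 in fibers. The sATM had 228 and 759.5, the vATM 585 and 659, the spleen libraries 136, 231 and 171, and the microglia 89.6, 154 and 137. Spleen and microglia overlapped, and sATM 1 lay inside the spleen range. H2-DMa was 3.35-fold higher in ganglia than in microglia (1.74 ± 0.38, adjusted p = 0.0083 by edgeR) and 2.36-fold higher than in spleen (1.24 ± 0.38, adjusted p = 0.0479), while spleen and microglia did not pass (0.50 ± 0.37, adjusted p = 0.567). The difference from microglia was lost without microglia 1 (1.61, adjusted p = 0.0717) and with limma on log2(RPKM + 0.1) (1.40, adjusted p = 0.116). Per length, H2-DMa was at 53.9, 129 and 101 RPKM in microglia and H2-Aa at 93.2, 17.7 and 19.0, so that H2-Aa was the higher in microglia 1 and H2-DMa in the other microglia.

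H2-DMb1, the main beta chain of H2-DM, was at 95.8, 70.9 and 128 CPM in ganglia and at 46.0 and 184 in fibers. The sATM had 68.8 and 191, the vATM 184 and 149.6, the spleen libraries 34.0, 47.0 and 42.3, and the microglia 13.6, 12.6 and 21.9. It was 6.10-fold higher in ganglia than in microglia (2.61 ± 0.48, adjusted p = 0.00225 by edgeR). Ganglia and spleen (1.26 ± 0.46, adjusted p = 0.109) and spleen and microglia (1.35 ± 0.46, adjusted p = 0.0797) did not pass, although their libraries did not overlap. The first passed without fibers 2 (1.25, adjusted p = 0.0242), and the second without fibers 1 or fibers 2 (1.35 to 1.45, adjusted p = 0.014 to 0.0146). DESeq2 called both (adjusted p = 0.0358 and 0.0246).

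H2-DMb2, the second beta chain gene, was far lower, with 2.31, 1.86 and 4.41 CPM in ganglia. The sATM had 6.11 and 11.96, the vATM 12.45 and 8.85, the spleen libraries 1.83, 1.97 and 0.457, and the microglia 0.519, 0 and 1.52. It was listed at 0 in both fiber libraries, whose raw counts over the gene body were 100 and 81, and no fold is given. Scaled to raw CPM per kilobase those counts were 0.691 and 1.03, beside 0.715 and 0.398 for the olfactory receptor genes in the same libraries. The fit called it lower in fibers than in sATM (adjusted p = 0.0215 by edgeR), a call lost in a fit of these 4 libraries alone, with voom and on raw counts, and not lower than in ganglia (adjusted p = 0.0547). In fibers against vATM it was also called lower in fibers (adjusted p = 0.017 by edgeR), a pair not followed under the alternatives. The fat libraries were the highest for this gene, above all libraries of the other groups. Of its 50-base windows 25.17% also occur in H2-DMb1, which was many times more abundant in the same libraries.

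H2-O, the restrainer of H2-DM, had its own pattern. H2-Oa was at 12.6, 18.0 and 19.6 CPM in microglia, at 9.23, 8.10 and 3.81 in ganglia, at 2.41, 1.42 and 2.74 in spleen, at 2.04 and 1.04 in sATM, at 0.599 and 1.35 in vATM and at 0 and 2.92 in fibers. The 3 microglia libraries exceeded all 12 others. Spleen was lower than microglia (log2 -2.92 ± 0.81, adjusted p = 0.0259 by edgeR), a call lost on leaving out any 1 of the 6 libraries (microglia 1, 2 or 3, spleen 1, 2 or 3; -3.10 to -2.69, adjusted p = 0.0618 to 0.128). Microglia and ganglia did not pass (-1.24 ± 0.77 in ganglia, adjusted p = 0.488), although their libraries did not overlap, and voom with quality weights called that difference (-1.37, adjusted p = 0.0344). In ganglia against fibers the difference, 2.19 ± 0.96, did not pass (adjusted p = 0.222), and without fibers 2 it did (adjusted p = 0.00462) against a lone library at 0 CPM. The raw gene-body density of H2-Oa in microglia was 4.58, 4.33 and 5.39 raw CPM per kilobase, above that of the olfactory receptor genes in each (0.0192, 0.629 and 0.319).

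H2-Ob, the beta chain of H2-O, was at 17.6, 27.6 and 21.5 CPM in ganglia, 26.3 and 17.3 in fibers and 18.7, 23.6 and 20.8 in microglia. In sATM it was at 4.58 and 3.10, in vATM at 6.70 and 7.99, and in spleen at 4.82, 5.25 and 5.33. The first 3 groups overlapped with one another and lay above every library of the other 3. Ganglia exceeded spleen 4.33-fold (2.11 ± 0.36, adjusted p = 0.000729 by edgeR) and sATM 5.85-fold (2.55 ± 0.43, adjusted p = 0.00415), and spleen was lower than microglia (-2.03 ± 0.36, adjusted p = 0.000777). Ganglia and vATM did not pass (1.60 ± 0.40, adjusted p = 0.0572). Fibers exceeded vATM (1.56 ± 0.43, adjusted p = 0.0469 by edgeR), a pair not followed under the alternatives.

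Fibers exceeded the neighbouring subcutaneous fat 5.72-fold in H2-Ob (2.52 ± 0.45, adjusted p = 0.00582 by edgeR). That call was lost without sATM 1 (2.52, adjusted p = 0.062) or sATM 2 (2.13, adjusted p = 0.117), and it held without fibers 1 (2.12, adjusted p = 0.0328). Where a group keeps 1 library, its spread is assumed to be like that of the other groups. It was also lost in a fit of these 4 libraries alone (2.69, adjusted p = 0.289) and with voom (2.56, adjusted p = 0.105). On raw gene-body counts the difference was 0.02 (adjusted p = 0.985 by edgeR). That fit scaled the libraries by TMM, whereas the densities that follow are per raw library total, so they are not on the same scale. The raw density of H2-Ob was 1.30 and 1.65 raw CPM per kilobase in fibers and 0.513 and 0.658 in sATM, and that of olfactory receptor genes 0.715 and 0.398 in fibers and 0.0589 and 0.181 in sATM. The part of genomic DNA in the result was not tested.

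Microglia exceeded vATM in H2-Oa (4.07 ± 1.03, adjusted p = 0.0153 by edgeR) and in H2-Ob (1.51 ± 0.40, adjusted p = 0.0208), 2 of 10 genes higher in microglia against 3.93% of all genes. The other 8 were lower, against 6.82%. Of these, H2-DMb2 lost its call without microglia 1 or 2, or any library of sATM or vATM (adjusted p up to 0.221), and H2-DMa (adjusted p = 0.122) and H2-DMb1 (adjusted p = 0.0639) lost it on raw counts. H2-Oa no longer passed without microglia 3, vATM 1 or vATM 2, and H2-Ob not without any of the microglia, sATM or vATM libraries (largest adjusted p 0.289 and 0.522). On raw gene-body counts neither passed (H2-Oa at 2.21, adjusted p = 0.601, and H2-Ob at 0.58, adjusted p = 0.951). Between sATM and vATM H2-Ob was lower in sATM in both libraries but did not pass.

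H2-O is known from B cells. B cell markers (10 genes measured) summed to 255 to 328 CPM in spleen, 66.8 to 80.2 in microglia, 76.4 to 82.4 in ganglia, 68.2 and 89.7 in fibers, 47.9 and 59.9 in vATM and 33.6 and 33.9 in sATM. Bank1 and Cd79b led the list in every group, at means of 181 and 75.9 CPM in spleen and 34.2 and 31.6 in microglia. Cd79a and Blk were at 0 in all 3 microglia libraries, and at 0 in all libraries of a group were also Cd79a, Pax5 and Fcer2a in fibers, Pax5 in ganglia and vATM, and Pax5 and Cr2 in sATM. Ighm and Ighd have no row and were not analysed here. Dendritic cell markers (12 genes) summed to 416 and 438 CPM in vATM, 247 and 444 in sATM, 212 to 249 in ganglia, 147 and 212 in fibers, 118 to 147 in spleen and 220.0 to 362 in microglia. The leading genes were Batf3 and Clec10a in vATM (means of 148 and 147.5 CPM), sATM (102 and 85.9) and fibers (43.0 and 35.8), Cd209a and Batf3 in ganglia (91.0 and 36.4), Itgax and Batf3 in spleen (44.5 and 43.6) and Fscn1 and Batf3 in microglia (239.9 and 22.4). Xcr1 was at 0 in both fiber libraries and Clec9a in both of sATM. The part of other cell types in the class II levels was not tested.

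Ratios between the genes within a library set the pattern on a scale free of library size. For 100 RPKM of H2-Aa, H2-DMa had 4.34 to 9.94 RPKM in nerve and fat, 13.9 to 17.9 in spleen, 57.8 in microglia 1 and 532 and 732 in the other microglia. For 100 RPKM of H2-DMa, H2-Oa had 18.6 to 22.6 RPKM in microglia and 0.0498 to 4.96 in all other libraries. For 100 RPKM of H2-DMb1, H2-Ob had 45.6 to 89.9 RPKM in microglia, 4.51 and 27.4 in fibers, 8.03 to 18.7 in ganglia, 5.37 to 6.78 in spleen, 1.74 and 2.56 in vATM and 0.789 and 3.25 in sATM. Microglia thus had the most exchanger per presenting chain and the most restrainer per exchanger. None of these ratios was tested.

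**Figure D4:**
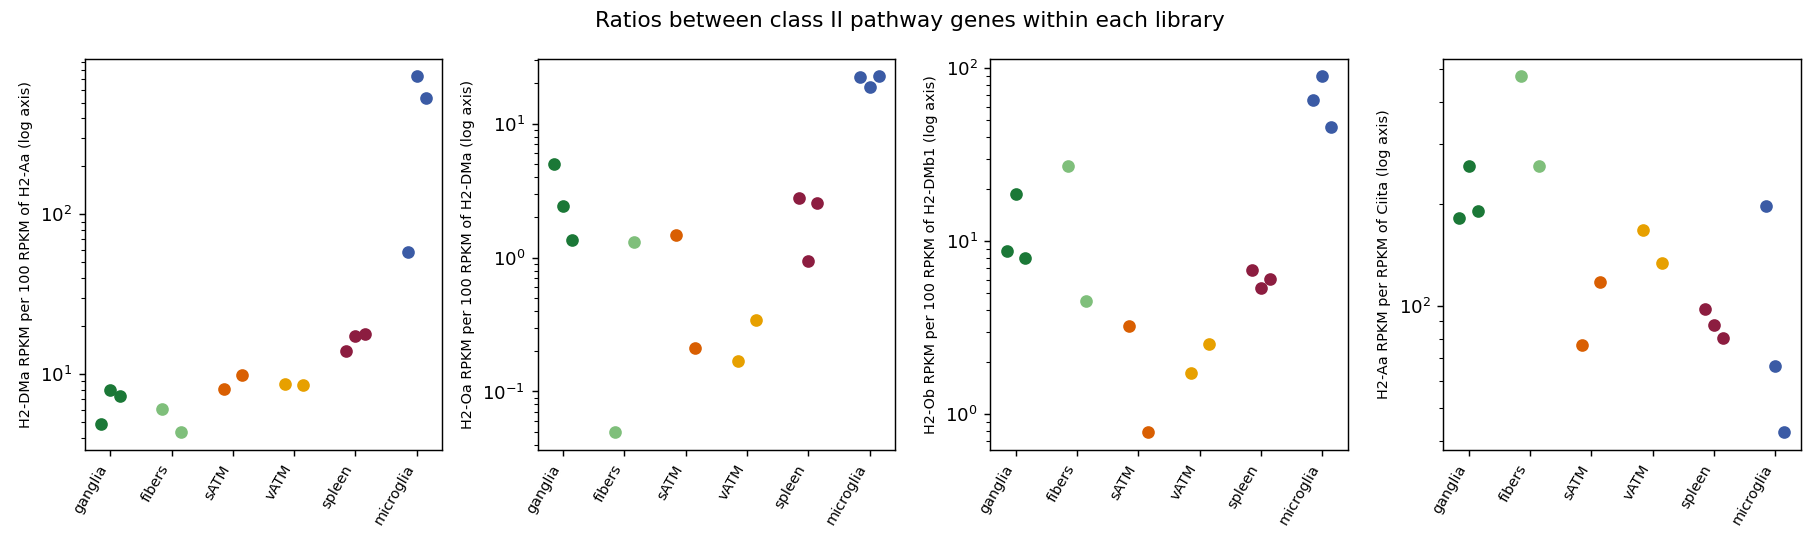
Ratios of RPKM between genes of the pathway in each of 15 libraries, on log axes, by group. H2-Oa per 100 RPKM of H2-DMa is 18.6 to 22.6 in microglia and at most 4.96 elsewhere, and H2-Aa per RPKM of Ciita is highest in fibers 1, at 475.

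Of the 7 calls between ganglia and spleen, those of H2-Aa, H2-Ab1, H2-Eb1 and H2-Ob held on leaving out each of the 15 libraries. Cd74 lost its call on leaving out any 1 of 10 libraries (ganglia 1, 2 or 3, spleen 1, 2 or 3, and each fat library; 1.56 to 1.97, adjusted p = 0.052 to 0.158 by edgeR). Ciita lost it without microglia 1, spleen 1, spleen 3, vATM 1 or vATM 2 (1.17 to 1.28, adjusted p = 0.0502 to 0.0764). H2-DMa lost it on leaving out 11 libraries, among them ganglia 2 and 3, each of microglia, spleen and vATM, and fibers 1 (1.06 to 1.47, adjusted p = 0.0559 to 0.195). The direction stayed in each case. With limma on log2(RPKM + 0.1) the same 3 genes did not pass either (adjusted p = 0.144, 0.232 and 0.281).

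The factors that Ciita works with were counted against all genes as above. Of 17 partners and regulators tested, 2 were higher in ganglia than in microglia: Irf4, a transcription factor of myeloid and lymphoid cells (2.18 ± 0.36, adjusted p = 0.000943 by edgeR), and Nlrc5, the transactivator of class I genes (2.52 ± 0.68, adjusted p = 0.0328). None was lower. Over all genes 4.91% were higher and 2.03% lower in that comparison. Irf4 alone was higher in ganglia than in spleen (2.24 ± 0.36, adjusted p = 0.000456), 1 of 17 against 5.96% of all genes. Nlrc5 was higher (3.06 ± 0.69, adjusted p = 0.00651) and the NF-Y subunit Nfya lower (-1.33 ± 0.32, adjusted p = 0.0114) in spleen than in microglia, 1 of 17 each against 5.8% and 5.31%, and none of the 17 was called in the other 3 comparisons. The median log2 difference of the 17 was 0.05 in ganglia against microglia, 0.31 in ganglia against spleen and -0.06 in spleen against microglia, beside -0.13, 0.10 and -0.21 over all genes. The RFX subunits Rfx5, Rfxap and Rfxank were called in none of the 6 comparisons. Rfx5 averaged 8.84 CPM in ganglia and 13.6 in microglia (-0.61 ± 0.37, adjusted p = 0.48), Rfxap 9.54 and 6.70 (0.51 ± 0.78) and Rfxank 5.66 and 8.69 (-0.61 ± 0.60).

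Other genes of the pathway, from lists of known members, were called in both directions. Of 15 genes of processing, turnover and costimulation, 2 were higher in ganglia than in microglia, among them Cd83, which protects class II from turnover (2.38 ± 0.36), and 4 were lower, among them the proteases Ctsd (-3.07 ± 0.42), Ctsl (-2.24 ± 0.35) and Lgmn (-1.38 ± 0.28). Between ganglia and spleen 1 was higher (Icosl, 2.32 ± 0.33) and 3 were lower (Ctsb, Cd86 and Ctsd, -2.48 to -1.46). In fibers against sATM 3 were higher and 0 lower: Cd83 at 1294 and 3446 CPM against 168 and 218 (3.62 ± 0.46, adjusted p = 0.000949 by edgeR), Cd86 (2.03 ± 0.49) and the cytokine Il10, known to hold class II at the surface down in myeloid cells (5.59 ± 1.25). In ganglia against fibers Ctss, the protease that trims the invariant chain (1.47 ± 0.27), and Lgmn (1.25 ± 0.32) were higher, and Cd83 (-2.31 ± 0.38) and Il10, listed at 0 in all 3 ganglia libraries, were lower. Spleen exceeded microglia in 3 and was lower in 5, among them Ctss (-1.58 ± 0.24), and none was called between sATM and vATM. The shares of all genes higher and lower were 4.91% and 2.03% in ganglia against microglia, 5.96% and 3.6% in ganglia against spleen, 1.85% and 2.99% in fibers against sATM, 2.85% and 1.27% in ganglia against fibers and 5.8% and 5.31% in spleen against microglia. They apply equally to the counts of the lists that follow. The median log2 difference of the 15 genes lay between -0.15 and 0.60 over the 6 comparisons.

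Interferon gamma is the best known inducer of Ciita. Of 14 tested genes of its signal, 5 were higher in ganglia than in microglia (among them Cxcl10, at 5.43 ± 0.62) and 0 lower, and 6 were higher in spleen than in microglia (among them Cxcl10, at 3.85 ± 0.59) and 0 lower. The median log2 difference of the 14 was 1.05 and 2.01 in these comparisons, beside -0.13 and -0.21 over all genes. In ganglia against spleen 0 of the 14 were higher and 1 was lower by edgeR. Fibers exceeded sATM in Cxcl10 (3.57 ± 0.65) and Irf1 (2.61 ± 0.49), ganglia exceeded fibers in Igtp (2.12 ± 0.34) and were lower in Irf1 (-2.67 ± 0.43), and none was called between sATM and vATM. Of 12 MHC class I genes, H2-D1 (2.25 ± 0.32, adjusted p = 0.00022) and H2-Q7 (2.93 ± 0.83) were higher in ganglia than in microglia and H2-D1 in spleen than in microglia (2.33 ± 0.32), with none called in the other 4 comparisons (medians of 0.69 in ganglia against microglia and 0.44 in spleen against microglia). H2-K1 was not analysed here. Of the 7 other tested genes of the class II locus, the peptide transporter Tap1 was higher in ganglia (1.11 ± 0.26) and in spleen (1.47 ± 0.27) than in microglia, and the proteasome subunit Psmb9 was higher in spleen (1.17 ± 0.26). The 7 had medians of 0.82 in ganglia against microglia and 1.17 in spleen against microglia.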

How the data were processed

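RNA of sorted macrophages was measured in 15 libraries of 6 groups, and the members and lists were chosen with earlier results of these data known. The authors deposited 3 tables made with STAR and HOMER on mm10, per the submitters' processing notes; versions, settings and strand use were not given in the sources used here. The first, deposited by the authors, holds estimated counts over exons corrected for DNA contamination (45.2931% of values whole within 1e-09), the second, also deposited, RPKM after that correction, and the third the deposited raw counts over whole gene bodies. Corrected counts were rounded to whole numbers, filtered with filterByExpr (minimum count 10), scaled by TMM and fitted with edgeR 4.0.16 (R 4.3.3, quasi-likelihood test) over all 15 libraries with 1 mean per group. p-values were Benjamini-Hochberg adjusted over 15289 genes, with calls at an adjusted p below 0.05 and a log2 difference of at least 1 in size. CPM values used library sizes after TMM, and RPKM was used for levels between genes. Alternatives were RLE scaling, no filter, a replicate block, only the groups compared, raw counts, DESeq2 1.42.0, voom with quality weights and limma 3.58.1 on log2(RPKM + 0.1) or log2(RPKM + 1), and leaving out each library. The fit was also run on simulated counts that scattered less than these data, whose common coefficient of variation between libraries was 0.68. That run therefore does not show the error rate of the fit here.

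All 10 members were named whatever their values. Of each pathway list, counts were given and up to 4 called genes with the smallest p named per comparison, besides Rfx5, Rfxap, Rfxank, Nlrc5, H2-Ea-ps and H2-K1. Marker lists were given by summed CPM, genes at 0 and the 2 most abundant. Ccr2, Ace, Ly6c2, Mrc1 and the library values of Cd83 were singled out after their values were seen. The genes most like the members were ranked by Pearson's r of log2(CPM + 1), leaving out predicted, clone-named, small RNA and receptor-segment genes. The tests of microglia against vATM and of sATM against spleen under the alternatives were added after seeing the data. Promoters are RefSeq's. Some genes that these rules would name are not reported here.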

Additional observations from a re-analysis of the deposited data

How the results depend on the processing

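In the 6 comparisons, 1506 differences of single genes were recomputed over all settings. Of these, 1422 stayed on their side of the threshold, 70 lost the call and 14 gained it. Differences called under neither setting count among those that stayed. Microglia against vATM and sATM against spleen are not in this tally, and calls lost there are given above. No called difference reversed, and 87 that were called under neither setting changed sign. The genes called higher in ganglia than in microglia (7) fell to 1 on raw counts, and voom called 1 lower (0 with edgeR). Those higher in ganglia than in spleen (7) were 0 on raw counts and 4 in each of the 3 fits of log2 RPKM (pseudocount 0.1, pseudocount 1, no filter). In fibers against sATM the 1 higher and the 1 lower gene became 0 and 0 on raw counts, with only the groups compared and with voom. In ganglia against fibers (0 higher) 1 was called without the filter on low counts, by DESeq2 and in the 3 RPKM fits. In spleen against microglia 5 higher and 2 lower became 0 and 0 on raw counts. The cause was not tested. Leaving out each library gave 6 to 7 higher in ganglia than in microglia, 4 to 8 higher in ganglia than in spleen, 0 to 1 higher and 0 to 2 lower in fibers than in sATM, 0 to 1 higher in ganglia than in fibers, and 5 to 6 higher and 1 to 2 lower in spleen than in microglia.

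Over all genes the counts higher and lower in ganglia against microglia were 750 and 310, and 58 and 4 on raw counts, 991 and 532 with DESeq2, 1103 and 707 with voom and 537 and 793 on log2(RPKM + 1). In fibers against sATM they were 283 and 457, and 0 and 0 on raw counts and with only those groups, 992 and 740 with DESeq2 and 104 and 5 with voom. Raw counts gave 140 and 114 in ganglia against spleen (911 and 550), 0 and 0 in ganglia against fibers (435 and 194) and 215 and 87 in spleen against microglia (887 and 812). Voom gave 1349 and 1022, 13 and 101, and 1612 and 1574 in these. With the replicate block 7 of the 10 genes were higher in ganglia than in microglia, and no count of members called changed in the 6 comparisons. The labels do not say what a replicate number marks. The numbers were not taken to pair the libraries, since not every pair correlated above 0.1, a rule that cannot show whether a number marks a batch. The 33 pairs of libraries with the same number had deviations correlated at -0.381 to 0.639 (median 0.095), and 60 other pairs at -0.544 to 0.427. Of 15 libraries, 8 correlated best with their own number. In groups of 2 libraries the deviations mirror each other, so the pairs are not independent. All 10 pairs among replicate 1 of microglia, ganglia, sATM, spleen and vATM correlated at 0.18 or more, and fibers 1 correlated negatively with each of them (-0.381 to -0.107).

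Groups of 2 or 3 libraries limit every test, and H2-DMb2 and H2-Oa lay near the floor of 3 counts in several libraries.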
